A study of Mus musculus with 24 samples.

Results

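The erythropoietin receptor signalling genes are 10 genes, chosen by name from the 54752 in the table: the receptor Epor, the kinases Jak2 and Lyn, the transcription factors Stat5a and Stat5b, the feedback inhibitors Cish, Socs2 and Socs3, and the survival genes Bcl2l1 and Pim1. All 10 were found, and 9 passed the filter on low values, a TPM above 1 in at least 1 library. TPM is a gene's length-normalised share of a library's transcripts. Socs2 never exceeded 1 TPM and is given by its values. RNA was sequenced from bone marrow cells of 24 male C57BL/6 mice, with a library per mouse and 6 mice in each of 4 groups. GC-WT were wild type mice kept on the ground as controls, and FL-WT were wild type mice after 31 days of spaceflight. GC-KO and FL-KO were the Nrf2-KO mice of both conditions. Nrf2, encoded by Nfe2l2, is the transcription factor that induces antioxidant and detoxifying genes. The flight mice were 8 weeks old when transported. Mice were sampled after return, the flight mice in the United States and the ground controls in Japan, so flight and place of sampling cannot be told apart. Cells of the right pelvis and tibia were frozen in cryopreservation medium, and RNA was extracted from the frozen suspension. The sources used here do not describe the Nrf2 allele further.

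Erythropoietin is the kidney hormone that keeps red cell progenitors alive and dividing. It binds its receptor on these progenitors and activates JAK2, a tyrosine kinase already bound to the receptor's cytoplasmic tail. JAK2 phosphorylates the tail, STAT5 proteins dock there, are phosphorylated in turn and move to the nucleus, where they switch on survival genes such as Bcl2l1 and Pim1. They also switch on Cish and the Socs genes, whose products bind the receptor or JAK2 and shut the signal down. JAK2, STAT5 and LYN also serve the receptors of white blood cells, so only the receptor itself is largely restricted to the erythroid lineage in marrow.

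Epor fell after flight in both genotypes, to 0.469 of the ground mean in wild type and 0.367 in Nrf2-KO mice, and the survival genes Bcl2l1 and Pim1 fell with it. Stat5a and Stat5b were lower in Nrf2-KO mice: they were at 0.505 and 0.523 of the wild type mean on the ground, and at 0.394 and 0.382 in flight. Lyn was lower in Nrf2-KO mice too, and Jak2 was lower after flight, but not on the scaled values described below. Cish and Socs3 were lowest in FL-KO mice, at levels near or below 2 TPM. These genotype differences depended on processing. With each library's GC content and transcript length trends removed, the log2 fold changes with Nrf2 loss in flight were -0.080 for Stat5a and -0.29 for Stat5b. Those of Cish and Socs3 were 0.29 and 0.044. No gene of the 9 had an interaction of flight and genotype that passed the test.

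The deposited values fell together: over the 12373 genes tested, the median log2 fold change was -0.24 with flight in wild type mice (FL-WT vs. GC-WT) and -0.29 with flight in Nrf2-KO mice (FL-KO vs. GC-KO). It was -0.22 with Nrf2 loss on the ground (GC-KO vs. GC-WT) and -0.25 with Nrf2 loss in flight, the comparison FL-KO vs. FL-WT. The tests of the members and the counts of gene lists are therefore also given after median-of-ratios scaling, called scaled TPM, which sets the median change near 0. Between 35.4% and 59.6% of the TPM of a library belonged to 5 abundant small RNAs. With these left out, the 4 medians were -0.31, -0.21, -0.35 and -0.23 in the same order. The targeted gene, Nfe2l2, was at 17.0 to 26.1 TPM in GC-WT and 11.4 to 27.3 TPM in FL-WT, against 3.60 to 7.18 TPM in GC-KO and 2.22 to 4.31 TPM in FL-KO, so every library followed its genotype label. Haemoglobin and other erythroblast genes summed to 87100 to 244900 TPM per library and mature neutrophil genes to 24360 to 61790 TPM, the makeup of whole marrow. No gene found of any marker list was at 0 throughout a group. Ahsp, also listed as an erythroblast marker, was not found under that symbol and is in no sum or count.

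Stretches of 3 promoters are shown because their genes carried the receptor and feedback results and because they hold the letters that erythroid and STAT5 factors read. Sequences are from RefSeq (GRCm38.p6), which gave promoters for 8 of the 10 genes, and positions count from the annotated start, with 1 as its first base. The Epor stretch covers positions -90 to -1, chr9:21963577-21963666 on the minus strand. Its capitals are a GATAA match at position -54, the core that GATA1, the master erythroid factor, binds, here on the opposite strand. The Socs3 stretch covers positions -180 to -121, chr11:117969487-117969546 on the minus strand. The Cish stretch covers positions 1 to 25, chr9:107296659-107296683 on the plus strand. In both, capitals are the palindrome TTCNNNGAA, the element of STAT5.
Epor: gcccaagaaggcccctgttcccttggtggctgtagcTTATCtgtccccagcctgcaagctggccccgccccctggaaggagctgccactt
Socs3: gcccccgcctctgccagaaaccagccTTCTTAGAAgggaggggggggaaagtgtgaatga
Cish: TTCCTGGAAagTTCTTGGAAatctg

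The Cish stretch held 2 copies of the element, starting at positions 1 and 12, and Socs3 held 1, at -154. Searched on both strands over 250 bases before to 50 after the start, TTCNNNGAA was present in 8.30% of 32851 promoters and GATAA in 25.4%. The antioxidant response element core, written TGACNNNGC, was present in 12.4%, and among these genes Epor had it at position 37 and Bcl2l1 at -127 of 1 of its 3 starts. Bcl2l1 also had GATAA at -40 of that start and Cish had it at -228. Jak2, Stat5a, Stat5b and Pim1 had none of the 3 motifs in these windows. A match is a description of the letters only.

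Epor (chr9:21958897-21963506, GRCm38, minus strand) encodes the receptor. In GC-WT mice it ranged from 15.7 to 26.2 TPM with a median of 18.5, and in FL-WT mice from 6.52 to 12.7 TPM with a median of 9.92. In GC-KO mice it ranged from 11.8 to 21.6 TPM with a median of 16.6, and in FL-KO mice from 5.18 to 8.80 TPM with a median of 5.69. All 6 flight mice lay below all 6 ground mice in each genotype on deposited TPM. On scaled TPM this held in Nrf2-KO mice, while the wild type groups overlapped. The order of the group means was GC-WT (20.3 ± 4.72), GC-KO (17.1 ± 3.52), FL-WT (9.52 ± 2.55) and FL-KO (6.27 ± 1.41), given as mean TPM ± SD with n = 6 throughout. For the first pair the exact permutation p was 0.394. The log2 fold change with flight was -1.03 ± 0.17 in wild type (± SE, adjusted p = 0.000159) and -1.31 ± 0.17 in Nrf2-KO mice (adjusted p = 1.45e-05).

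Epor ranked 102 of 12373 genes from the lowest fold change with flight in wild type mice and 46 with flight in Nrf2-KO mice. Its exact two-sided permutation p was 0.00216 in both, the smallest that 6 mice against 6 allow, and 0.00866 and 0.00216 on scaled TPM. On scaled TPM the log2 fold changes were -0.66 (adjusted p = 0.000607) and -0.91 (adjusted p = 3.32e-05), and with each library's GC content and transcript length trends removed they were -0.76 and -0.78. Between genotypes, Epor was lower with Nrf2 loss in flight (-0.52 ± 0.17, adjusted p = 0.014) with overlapping groups, and this was -0.16 on scaled TPM (adjusted p = 0.264) and 0.25 with the trends removed. The difference between the flight changes of the genotypes was -0.28 (95% confidence interval -0.77 to 0.21, adjusted p = 1).

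Most erythroblast markers other than globin genes were also lower after flight. Of 15 erythroblast genes tested, 10 were lower and 0 higher with flight in wild type mice, and 11 were lower and 0 higher with flight in Nrf2-KO mice. Of all genes 39.0% and 53.1% were lower (13.6% and 20.4% on scaled TPM), and the other lists of this paragraph are to be read against these shares. On scaled TPM 10 erythroblast genes were lower and 4 higher in wild type mice, and 10 lower and 1 higher in Nrf2-KO mice. The 4 globin genes of the list, Hba-a1, Hba-a2, Hbb-bs and Hbb-bt, were not among the lower genes. Their flight changes were 0.035, 0.083, 0.23 and 0.087 in wild type mice (smallest adjusted p = 0.308), and on scaled TPM all 4 were higher, at 0.42, 0.47, 0.62 and 0.47 (largest adjusted p = 0.0721). In Nrf2-KO mice they were at -0.13, -0.11, -0.0002 and -0.15 (smallest adjusted p = 0.480), and on scaled TPM at 0.32, 0.34, 0.45 and 0.30, of which Hbb-bs alone passed (adjusted p = 0.0870). Globin RNA made up most of the sum of all 15 genes, which had a median of 185500 TPM in GC-WT and 167000 in FL-WT, against 208100 in GC-KO and 196000 in FL-KO, and overlapped between flight and ground (lowest to highest 87100 to 203900, 144900 to 207000, 166000 to 244900 and 152900 to 222600 TPM). The 11 that are not globin genes summed to 936 to 2005 TPM in GC-WT and 706 to 1187 in FL-WT, against 1279 to 2202 in GC-KO and 717 to 1133 in FL-KO. Of 6 early erythroid progenitor genes, 4 were lower in FL-WT and 5 in FL-KO mice than in their ground controls, and 2 and 3 were on scaled TPM with 0 higher. Markers of some other cells were lower as well: all 10 B progenitor genes in both flight comparisons (8 and 7 on scaled TPM), and 3 and all 5 of 5 megakaryocyte genes (0 and 3 on scaled TPM). Other lists rose or were mixed. With flight, 0 of 7 mature neutrophil genes were lower and 4 higher in wild type, and 1 and 1 in Nrf2-KO mice. On scaled TPM these were 0 and 6, and 1 and 5. Of 6 secondary granule genes 0 were lower and 1 higher, and 2 and 0 (0 and 5, and 0 and 2, on scaled TPM). Of 8 T and NK genes 0 were lower and 0 higher, and 1 and 0 (0 and 5 in each on scaled TPM). By flow cytometry of frozen marrow cells, the authors found a higher share of Kit-positive erythroid progenitors among live cells of both flight groups. Cells with a surface marker of later erythroid stages hardly survived freezing and were left out there. In bulk marrow RNA, fewer erythroid cells and less Epor RNA per cell cannot be told apart. The part of these markers in the Epor result was not tested.

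**Figure D1:**
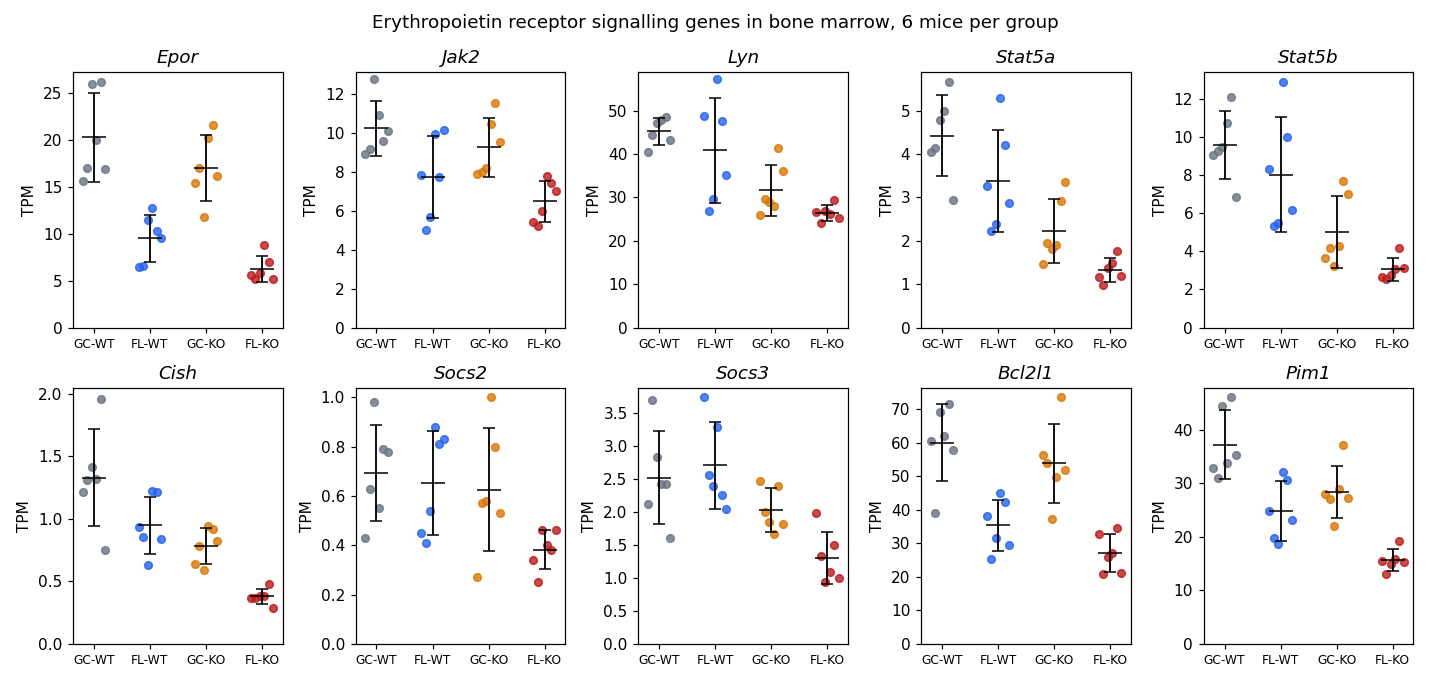
Deposited TPM of the 10 genes (vertical axes, each from 0) in the 6 mice of each group, a point per mouse, with the mean as a bar and the SD as error bars. Epor of all flight mice lies below that of all ground mice of the same genotype, while Stat5a and Stat5b step down between the genotypes.

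Jak2 (chr19:29251828-29313080, plus strand), the receptor's kinase, ranged from 8.92 to 12.8 TPM with a median of 9.85 in GC-WT and from 5.02 to 10.1 TPM with a median of 7.79 in FL-WT. It ranged from 7.87 to 11.5 TPM with a median of 8.87 in GC-KO and from 5.24 to 7.78 TPM with a median of 6.52 in FL-KO. The FL-KO mice all lay below the GC-KO mice, while FL-WT and GC-WT overlapped. On scaled TPM the FL-KO and GC-KO mice overlapped too. The order of the means was GC-WT (10.3 ± 1.42), GC-KO (9.27 ± 1.51), FL-WT (7.73 ± 2.12) and FL-KO (6.49 ± 1.08). The log2 fold change was -0.39 ± 0.14 with flight in wild type mice (adjusted p = 0.04) and -0.46 ± 0.14 with flight in Nrf2-KO mice (adjusted p = 0.0144). Both flight calls were lost on scaled TPM, where the values were -0.051 and -0.059 (adjusted p = 0.617 and 0.53). Without FL-WT mouse 05 the first was -0.29 (adjusted p = 0.135), and it was also lost without FL-WT mouse 06 and without GC-WT mouse 06. Between genotypes Jak2 did not pass the test on deposited TPM (-0.14 and -0.20), and on scaled TPM it was higher in Nrf2-KO mice, by 0.17 on the ground (adjusted p = 0.0424) and 0.16 in flight (adjusted p = 0.0453).

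Lyn (chr4:3678115-3813122, plus strand) encodes a Src family kinase that also binds the receptor and is abundant in myeloid and B cells. It ranged from 40.5 to 48.5 TPM with a median of 45.8 in GC-WT and from 26.8 to 57.3 TPM with a median of 41.4 in FL-WT. It ranged from 26.1 to 41.4 TPM with a median of 29.3 in GC-KO and from 24.2 to 29.5 TPM with a median of 26.4 in FL-KO. Of the 6 GC-KO mice, 5 lay below all GC-WT mice, and 4 FL-KO mice lay below all FL-WT mice. By mean the order was GC-WT (45.3 ± 3.08), FL-WT (40.9 ± 12.1), GC-KO (31.7 ± 5.86) and, lowest, FL-KO (26.4 ± 1.78). The first pair had an exact permutation p of 0.818. Lyn was lower with Nrf2 loss on the ground (-0.52 ± 0.15, adjusted p = 0.00634) and with Nrf2 loss in flight (-0.56 ± 0.15, adjusted p = 0.00245). The values were -0.19 and -0.17 on scaled TPM (adjusted p = 0.0786 and 0.0997) and -0.27 and -0.29 with GC content and length trends removed. With flight the deposited values were -0.19 and -0.24 and did not pass the test, and the scaled values had the other sign, 0.18 in wild type (adjusted p = 0.122) and 0.20 in Nrf2-KO mice (adjusted p = 0.0812). Exons of Lyn overlap those of Gm26857 on the opposite strand.

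Stat5a (chr11:100859351-100885169, plus strand) and Stat5b (chr11:100780731-100850724, minus strand) are neighbours that encode the transcription factors activated by JAK2. Stat5a ranged from 2.95 to 5.66 TPM with a median of 4.46 in GC-WT and from 2.22 to 5.28 TPM with a median of 3.07 in FL-WT. It ranged from 1.46 to 3.36 TPM with a median of 1.93 in GC-KO and from 0.99 to 1.76 TPM with a median of 1.29 in FL-KO. Of the GC-KO mice, 5 lay below all GC-WT mice, and all 6 FL-KO mice lay below all FL-WT mice. Its order of means was GC-WT (4.42 ± 0.935), FL-WT (3.37 ± 1.17), GC-KO (2.23 ± 0.737) and, lowest, FL-KO (1.33 ± 0.272). The first pair had an exact permutation p of 0.18, and limma gave it an unadjusted p of 0.046 (adjusted p = 0.11).

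Stat5b ranged from 6.86 to 12.1 TPM with a median of 9.39 in GC-WT and from 5.32 to 12.9 TPM with a median of 7.25 in FL-WT. It ranged from 3.23 to 7.69 TPM with a median of 4.23 in GC-KO and from 2.53 to 4.2 TPM with a median of 2.94 in FL-KO. Of the GC-KO mice, 4 lay below all GC-WT mice, and all 6 FL-KO mice lay below all FL-WT mice. Ranked by mean, the groups came in the same order as for Stat5a: GC-WT (9.59 ± 1.77), FL-WT (8.04 ± 3.01), GC-KO (5.02 ± 1.87) and, lowest, FL-KO (3.07 ± 0.602). The first pair had an exact permutation p of 0.31.

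Both STAT5 genes were lower in Nrf2-KO mice. With Nrf2 loss on the ground the log2 fold change was -0.76 ± 0.16 for Stat5a (adjusted p = 0.000842) and -0.85 ± 0.19 for Stat5b (adjusted p = 0.00115). With Nrf2 loss in flight it was -0.88 ± 0.16 for Stat5a (adjusted p = 7.37e-05) and -1.10 ± 0.19 for Stat5b (adjusted p = 3.59e-05). On scaled TPM the 4 values were -0.49, -0.55, -0.63 and -0.78 and all passed the test (largest adjusted p = 0.00101). With GC content and length trends removed they shrank to -0.13 and -0.19 on the ground (adjusted p = 0.0668 and 0.0272) and to -0.080 and -0.29 in flight, where Stat5a no longer passed (adjusted p = 0.233) and Stat5b did (adjusted p = 0.00105). The flight changes were -0.33 and -0.27 in wild type mice, which did not pass, and -0.45 and -0.52 in Nrf2-KO mice, which passed (adjusted p = 0.027 and 0.0304) but not on scaled TPM (-0.17 and -0.16, adjusted p = 0.178 and 0.309). Without GC-KO mouse 11 the Stat5b flight change in Nrf2-KO mice was -0.40 and no longer passed (adjusted p = 0.105).

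The ratio of Stat5a to Stat5b stayed within a narrow range while both levels moved. Its geometric mean was 0.459 in GC-WT and 0.423 in FL-WT, against 0.450 in GC-KO and 0.431 in FL-KO, and the groups overlapped in every comparison. These paralogs are closely similar in sequence, which estimated counts can split unevenly, and exons of Stat5a overlap those of Stat3 on the opposite strand, so their separate levels are uncertain. Some myeloid marker lists were lower with Nrf2 loss as well, and B progenitor genes were on the ground. Of all genes 42.9% were lower on the ground and 47.2% in flight (28.9% and 32.9% on scaled TPM). Of 10 B progenitor genes 7 were lower on the ground and 5 in flight. On scaled TPM 5 were lower and 0 higher on the ground, and 2 lower and 1 higher in flight. Of 6 secondary granule genes 5 were lower on the ground and 5 in flight, and on scaled TPM 5 were lower and 1 higher in each. Of 7 monocyte and macrophage genes 5 and 6 were lower, and on scaled TPM 4 were lower and 1 higher on the ground and 5 lower and 0 higher in flight. The 7 mature neutrophil genes went both ways, with 2 lower and 3 higher on the ground and 4 lower and 0 higher in flight, and 2 lower and 3 higher in each on scaled TPM. Their summed level had a median of 33350 TPM in GC-WT and 50170 in FL-WT, against 44110 in GC-KO and 46500 in FL-KO. The secondary granule genes summed to 7126 to 9595 TPM in GC-WT and 6665 to 12900 in FL-WT, against 5044 to 8195 in GC-KO and 4823 to 6491 in FL-KO. The monocyte and macrophage genes summed to 385 to 518, 346 to 634, 279 to 472 and 255 to 373 TPM in the same order. The part of these markers in the STAT5 and Lyn results was not tested.

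**Figure D2:**
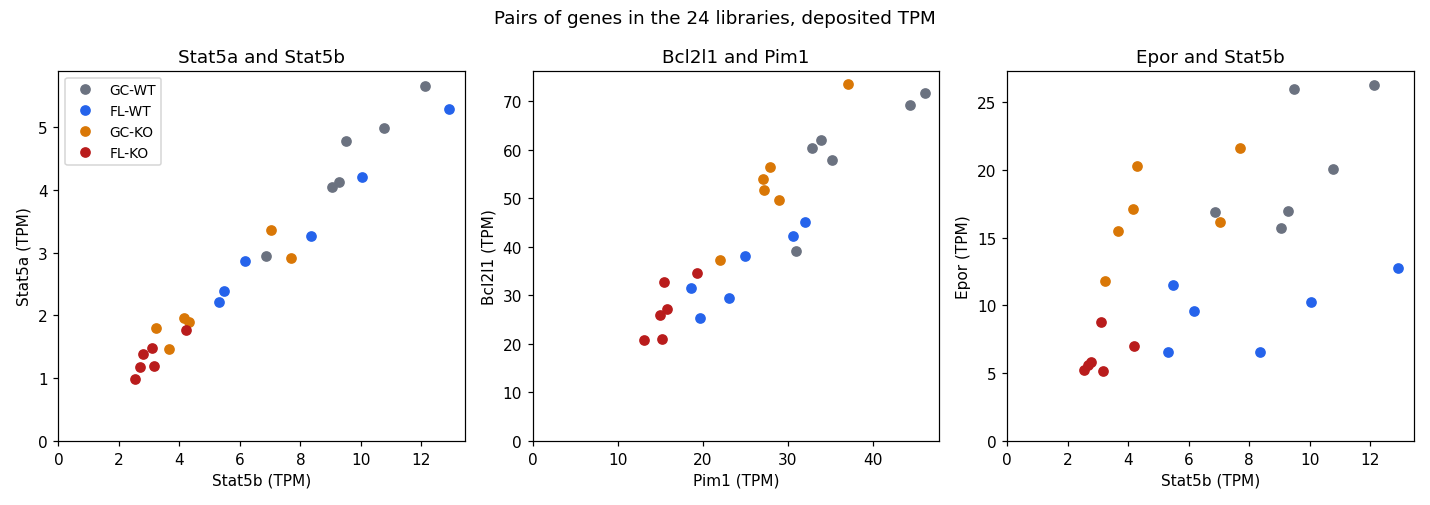
Deposited TPM of Stat5a against Stat5b, Bcl2l1 against Pim1, and Epor against Stat5b in the 24 libraries, a point per mouse coloured by group, on axes from 0. Stat5a lies at 0.423 to 0.459 of Stat5b on average in every group, and Epor of flight mice lies below that of ground mice of the same genotype.

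Bcl2l1 (chr2:152780668-152831728, minus strand) encodes BCL-XL, which blocks cell death in maturing erythroblasts. It ranged from 39.1 to 71.7 TPM with a median of 61.3 in GC-WT and from 25.4 to 45.1 TPM with a median of 34.8 in FL-WT. It ranged from 37.3 to 73.6 TPM with a median of 52.9 in GC-KO and from 20.8 to 34.6 TPM with a median of 26.6 in FL-KO. All FL-KO mice lay below all GC-KO mice, and 4 FL-WT mice lay below all GC-WT mice. On scaled TPM the FL-KO and GC-KO mice overlapped. The means fell in the order GC-WT (60.0 ± 11.5), GC-KO (53.8 ± 11.8), FL-WT (35.3 ± 7.70) and FL-KO (27.1 ± 5.74). For the first pair the exact permutation p was 0.24. The flight change was -0.75 ± 0.17 in wild type mice (adjusted p = 0.0024) and -0.96 ± 0.17 in Nrf2-KO mice (adjusted p = 0.000159). It passed the test on scaled TPM (-0.37 and -0.53, adjusted p = 0.0559 and 0.00819) and after removal of GC content and length trends (-0.47 and -0.51). Between genotypes it was -0.16 on the ground, which did not pass, and -0.37 in flight (adjusted p = 0.0776). On scaled TPM these were 0.18 and 0.023, the other sign, and neither passed. The call in flight was also lost without any 1 of 3 FL-WT and 3 FL-KO mice, with the weakest value -0.29 (adjusted p = 0.199) without FL-WT mouse 07.

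Pim1 (chr17:29490753-29496112, plus strand) encodes a serine/threonine kinase that promotes survival and growth, and its exons overlap those of Gm26885 on the opposite strand. It ranged from 30.9 to 46.1 TPM with a median of 34.5 in GC-WT and from 18.6 to 32.1 TPM with a median of 23.99 in FL-WT. It ranged from 22.0 to 37.1 TPM with a median of 27.5 in GC-KO and from 13.02 to 19.3 TPM with a median of 15.3 in FL-KO. All FL-KO mice lay below all GC-KO mice, and 5 FL-WT mice lay below all GC-WT mice. The order of the means was GC-WT (37.2 ± 6.40), GC-KO (28.3 ± 4.89), FL-WT (24.8 ± 5.52) and FL-KO (15.6 ± 2.04). The flight change was -0.58 ± 0.14 in wild type mice (adjusted p = 0.00429) and -0.81 ± 0.14 in Nrf2-KO mice (adjusted p = 0.00013), and on scaled TPM -0.20 and -0.39 (adjusted p = 0.0751 and 0.00172). The genotype change was -0.38 on the ground (adjusted p = 0.0315) and -0.62 in flight (adjusted p = 0.000681). On scaled TPM these were -0.050 (adjusted p = 0.638) and -0.23 (adjusted p = 0.0198), and after removal of GC content and length trends 0.0082 and -0.10 (adjusted p = 0.941 and 0.263).

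Cish (chr9:107296026-107302784, plus strand) encodes a STAT5-induced inhibitor that blocks the receptor's docking sites. It ranged from 0.75 to 1.96 TPM with a median of 1.32 in GC-WT and from 0.63 to 1.22 TPM with a median of 0.89 in FL-WT. It ranged from 0.59 to 0.94 TPM with a median of 0.80 in GC-KO and from 0.29 to 0.48 TPM with a median of 0.375 in FL-KO. All FL-KO mice lay below all GC-KO mice and below all FL-WT mice. By mean the order was GC-WT (1.33 ± 0.389), FL-WT (0.947 ± 0.230), GC-KO (0.782 ± 0.143) and, lowest, FL-KO (0.378 ± 0.0605). On the log2(TPM + 1) scale, which understates changes this low, the flight change was -0.25 ± 0.11 in wild type mice (adjusted p = 0.0791) and -0.37 ± 0.11 in Nrf2-KO mice (adjusted p = 0.00961). The genotype change was -0.37 ± 0.11 on the ground (adjusted p = 0.00772) and -0.49 ± 0.11 in flight (adjusted p = 0.000516). The wild type flight call was lost on scaled TPM (-0.047, adjusted p = 0.673), where the other values were -0.22, -0.19 and -0.36 and passed. After removal of GC content and length trends every Cish value turned positive, and that of Nrf2 loss in flight became 0.29 (adjusted p = 0.0125). Leaving out any 1 of 8 mice also lost the wild type flight call, and the weakest value was -0.18 (adjusted p = 0.223) without GC-WT mouse 08. Exons of Gm17040 and Gm17041 overlap those of Cish on the opposite strand.

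Socs3 (chr11:117966079-117970047, minus strand) encodes an inhibitor that binds JAK2 and the receptor, and it also answers to inflammatory cytokines. It ranged from 1.61 to 3.70 TPM with a median of 2.43 in GC-WT and from 2.04 to 3.74 TPM with a median of 2.48 in FL-WT. It ranged from 1.66 to 2.47 TPM with a median of 1.93 in GC-KO and from 0.94 to 1.98 TPM with a median of 1.21 in FL-KO. All FL-KO mice lay below all FL-WT mice, and 5 lay below all GC-KO mice. On scaled TPM the FL-KO and FL-WT mice overlapped. Ranked by mean, the groups were FL-WT (2.71 ± 0.659), GC-WT (2.52 ± 0.707), GC-KO (2.03 ± 0.328) and FL-KO (1.31 ± 0.392). For the first pair the exact permutation p was 0.818. Socs3 was lower with Nrf2 loss in flight (-0.69 ± 0.14, adjusted p = 0.000191; -0.45 on scaled TPM, adjusted p = 0.0157), and this was 0.044 after removal of the GC content and length trends (adjusted p = 0.82). It was also lower with flight in Nrf2-KO mice (-0.40, adjusted p = 0.0215), which was lost on scaled TPM (-0.13, adjusted p = 0.533). With flight in wild type mice it was 0.083 (adjusted p = 0.65), and 0.35 on scaled TPM (adjusted p = 0.0918). With Nrf2 loss on the ground it was -0.20 (adjusted p = 0.263).

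Socs2 (chr10:95385362-95417180, minus strand), an inhibitor best known for restraining growth hormone signalling, ranged from 0.43 to 0.98 TPM with a median of 0.705 in GC-WT and from 0.41 to 0.88 TPM with a median of 0.675 in FL-WT. It ranged from 0.27 to 1 TPM with a median of 0.575 in GC-KO and from 0.25 to 0.46 TPM with a median of 0.39 in FL-KO. Of the FL-KO mice, 4 lay below all FL-WT mice and 1 below all GC-KO mice. The exact permutation p, not adjusted over the 40 such tests of the 10 genes, was 0.0238 for Nrf2 loss in flight and 0.0346 for flight in Nrf2-KO mice. When all 28248 genes with a value above 0 were tested without the filter, the log2 fold changes were -0.25 (adjusted p = 0.0865) and -0.22 (adjusted p = 0.129).

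With flight in wild type mice, 5 of the 9 genes tested were lower (Epor, Jak2, Cish, Bcl2l1 and Pim1) and 0 higher, against 39.0% of all genes lower. Of these only Epor fell at least 2-fold on the log2(TPM + 1) scale, as 0.938% of all genes did, and only Epor had groups that did not overlap, as 4.19% did. The Epor groups overlapped on scaled TPM. On scaled TPM 3 were lower (Epor, Bcl2l1 and Pim1), against 13.6% of all genes, and 1 higher (Socs3), against 20.6%. The median log2 fold change of the 9 was -0.33, beside -0.24 for all genes.

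With flight in Nrf2-KO mice, 8 of 9 were lower and 0 higher, against 53.1% of all genes lower, and Lyn was the exception. On the log2(TPM + 1) scale only Epor fell at least 2-fold (2.13% of all genes), while the mean TPM of Cish was also below 0.5 of the ground mean, at 0.484. In all, 5 did not overlap between groups (Epor, Jak2, Cish, Bcl2l1 and Pim1), against 18.4% of all genes. Of these, Jak2 and Bcl2l1 overlapped on scaled TPM. On scaled TPM 4 were lower (Epor, Cish, Bcl2l1 and Pim1), against 20.4%, and 1 higher (Lyn), against 19.1%. The median of the 9 was -0.46, beside -0.29 for all genes.

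With Nrf2 loss on the ground, 5 of 9 were lower (Lyn, Stat5a, Stat5b, Cish and Pim1) and 0 higher, against 42.9% of all genes lower. None of the 9 fell at least 2-fold on that scale (3.04% of all genes) and none was separate from the other group (9.15%). On scaled TPM 4 were lower (Lyn, Stat5a, Stat5b and Cish), against 28.9%, and 1 higher (Jak2), against 28.3%. The median of the 9 was -0.37, beside -0.22 for all genes.

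With Nrf2 loss in flight, 8 of 9 were lower and 0 higher, against 47.2% of all genes lower, and Jak2 was the exception. On the log2(TPM + 1) scale only Stat5b fell at least 2-fold (8.36% of all genes), while the ratio of mean TPM was below 0.5 for Stat5a (0.394), Cish (0.400) and Socs3 (0.482) too. In all, 4 did not overlap (Stat5a, Stat5b, Cish and Socs3), against 20.6%. Of these, Socs3 overlapped on scaled TPM. On scaled TPM 6 were lower (Lyn, Stat5a, Stat5b, Cish, Socs3 and Pim1), against 32.9%, and 1 higher (Jak2), against 31.9%. The median of the 9 was -0.56, beside -0.25 for all genes. The 4 comparisons share groups pairwise, so their counts are not independent.

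The interaction of flight and genotype passed limma's test for 0 of the 9 genes, against 0.0162% of all genes, and 1 had an unadjusted p under 0.05. That was Socs3, whose flight change was -0.49 apart, more negative in Nrf2-KO than in wild type mice on the log2 scale (95% confidence interval of the difference -0.88 to -0.092, adjusted p = 1). For the other 8 the difference ranged from -0.28 for Epor to -0.043 for Lyn.

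**Figure D3:**
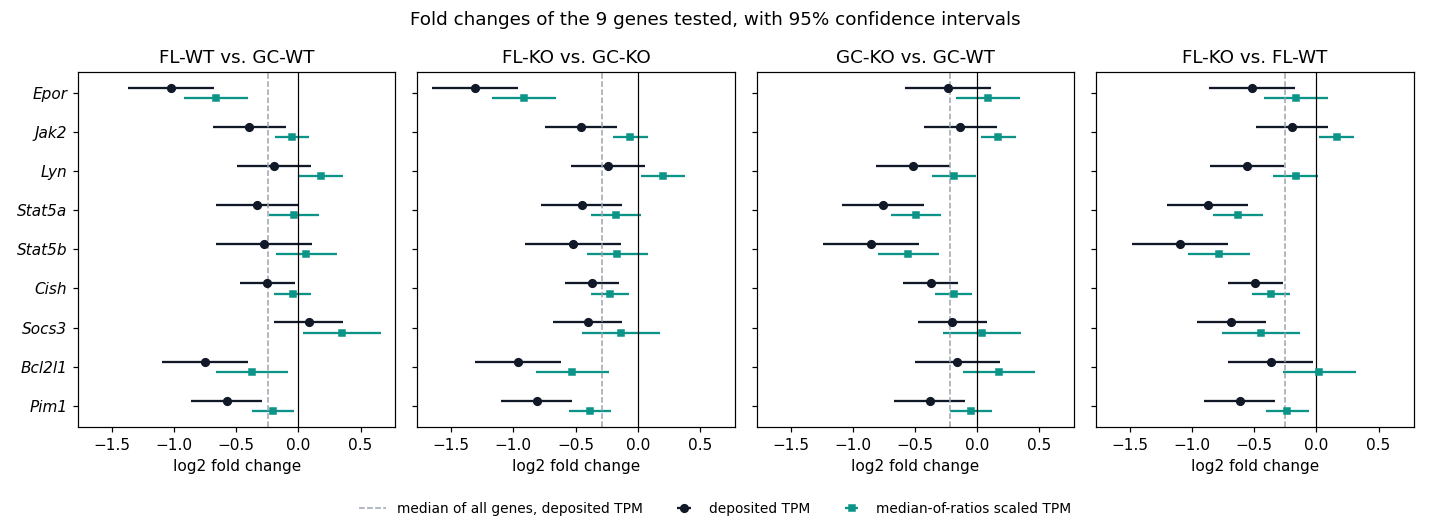
Log2 fold changes (horizontal axis) of the 9 genes tested in the 4 comparisons, with 95% confidence intervals, from deposited TPM (circles) and median-of-ratios scaled TPM (squares); the dashed line is the median of all genes on deposited TPM. Epor lies farthest to the left in both flight comparisons and Stat5a and Stat5b in both genotype comparisons, on either scale.

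Ratios to the receptor within a library had higher means in flight mice. The Jak2 to Epor ratio had a geometric mean of 0.512 in GC-WT and 0.810 in FL-WT, against 0.548 in GC-KO and 1.04 in FL-KO. All FL-KO mice lay above all GC-KO mice in this ratio, while the wild type groups overlapped. The Lyn to Epor ratio was 2.28, 4.27, 1.87 and 4.29 in the same order, again without overlap in Nrf2-KO mice only. The Bcl2l1 to Epor ratio moved less, from 2.97 to 3.75 in wild type and from 3.15 to 4.32 in Nrf2-KO mice with overlapping groups, and the Pim1 to Epor ratio from 1.85 to 2.64 and from 1.67 to 2.52. These ratios do not depend on the scaling between libraries, and they share Epor as denominator.

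The rest of the pathway was read from a list of 59 genes, of which 55 were tested. Epo, the hormone itself, was listed at 0 TPM in all 24 libraries. With flight in wild type mice 21 of 55 were lower, or 38.2% against 39.0% of all genes, and 1 higher, and on scaled TPM 10 were lower (18.2% against 13.6%) and 8 higher. With flight in Nrf2-KO mice 42 were lower (76.4% against 53.1%) and 0 higher, and on scaled TPM 19 lower (34.5% against 20.4%) and 6 higher. With Nrf2 loss on the ground 44 were lower (80.0% against 42.9%) and 0 higher, and on scaled TPM 40 lower (72.7% against 28.9%) and 5 higher. With Nrf2 loss in flight 45 were lower (81.8% against 47.2%) and 0 higher, and on scaled TPM 39 lower (70.9% against 32.9%) and 5 higher. The counts by role that follow are to be read against the same shares of all genes. The median log2 fold changes of the 55 genes were -0.27, -0.49, -0.59 and -0.66 in that order of comparisons. The counts are not given with GC content and length trends removed, where some genotype calls were lost or turned. With Nrf2 loss on the ground, Irs2 went from -0.81 to -0.089 (adjusted p = 0.249) and Gab1 from -0.30 to 0.27 (adjusted p = 0.0544). Vav1 (-0.42) and Mapk3 (-0.40) still passed. Irs2 and Gab1 were named after their values were seen.

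**Figure D4:**
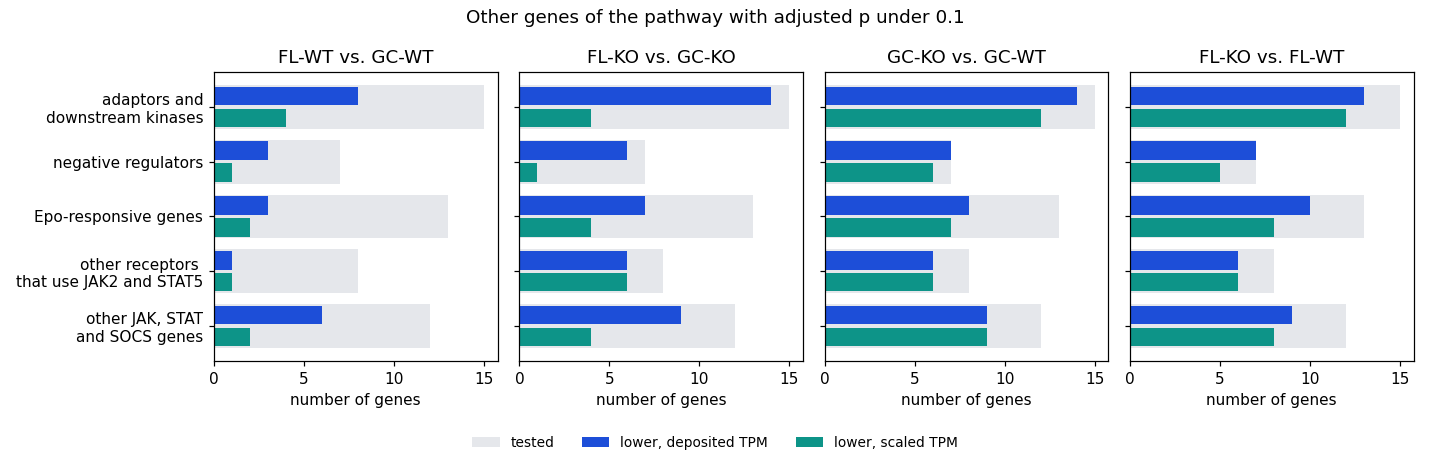
Number of other pathway genes by role (horizontal axis, from 0) that were tested (pale bars) and that were lower at adjusted p under 0.1 on deposited TPM (upper bars) and on scaled TPM (lower bars), in the 4 comparisons. On scaled TPM 10 and 19 of 55 genes were lower in the flight comparisons and 40 and 39 in the genotype comparisons.

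Among adaptors and downstream kinases, 8 of 15 were lower with flight in wild type mice, 14 with flight in Nrf2-KO mice, 14 with Nrf2 loss on the ground and 13 with Nrf2 loss in flight. On scaled TPM the counts in that order were 4, 4, 12 and 12 lower and 3, 1, 1 and 1 higher. Pik3r1, the regulatory subunit of PI3 kinase, went from 18.0 ± 3.35 TPM in GC-WT to 10.4 ± 2.63 in FL-WT (log2 fold change -0.76, adjusted p = 0.000621) and from 16.5 ± 2.67 in GC-KO to 10.3 ± 1.33 in FL-KO (-0.63, adjusted p = 0.00181). Shc1, an adaptor to the Ras pathway, was lower in FL-KO than GC-KO mice (-0.74, adjusted p = 0.00112). These flight changes passed on scaled TPM too. Crkl, an adaptor, was at -0.41 with flight in wild type mice (adjusted p = 0.0358) but at -0.073 on scaled TPM (adjusted p = 0.503). With the genotype the leading genes were Vav1, an exchange factor of blood cells, and Mapk3, which encodes ERK1. Vav1 was at -0.95 on the ground and -1.20 in flight, and Mapk3 at -0.83 and -1.16 (largest adjusted p = 0.00122), and all 4 passed on scaled TPM.

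Of the negative regulators, all 7 were lower with Nrf2 loss both on the ground and in flight, and 6 and 5 were on scaled TPM. Inpp5d, which encodes the phosphatase SHIP1, fell from 19.5 ± 3.93 TPM in GC-WT to 8.10 ± 3.04 in GC-KO (-1.21, adjusted p = 0.000411) and from 14.5 ± 6.13 in FL-WT to 4.46 ± 0.891 in FL-KO (-1.43, adjusted p = 7.46e-06). Sh2b3, which encodes the JAK2 inhibitor LNK, fell from 11.1 ± 4.46 TPM in FL-WT to 2.99 ± 0.890 in FL-KO (-1.55, adjusted p = 2.14e-06). Cbl, a ubiquitin ligase, was at -1.20 with Nrf2 loss on the ground (adjusted p = 0.000411). With GC content and length trends removed, Inpp5d, Sh2b3, Cbl, Ptpn6 and Pias3 were still lower in both genotype comparisons. Socs1 was higher there, at 0.32 on the ground (adjusted p = 0.0189) and 0.54 in flight (adjusted p = 0.000275). Cblb was at -0.16 (adjusted p = 0.0658) and 0.10 (adjusted p = 0.227). Pias3, Socs1 and Cblb were named after their values were seen. With flight, 3 of 7 were lower in wild type and 6 in Nrf2-KO mice, but only 1 in each on scaled TPM. Inpp5d (-0.47 and -0.69), Sh2b3 (-0.46 in wild type) and Ptpn6, the phosphatase SHP-1 (-0.56 in Nrf2-KO mice), lost their flight calls there. Sh2b3 kept its call with flight in Nrf2-KO mice, at -0.91 (adjusted p = 0.00151) and -0.56 on scaled TPM (adjusted p = 0.0125), a result named after its values were seen.

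Of 15 Epo-responsive genes listed, Erfe and Podxl did not pass the filter on low values. Of the 13 tested, 3 were lower and 1 higher with flight in wild type mice, and 7 were lower and 0 higher with flight in Nrf2-KO mice. The list does not separate genes that Epo raises from genes it lowers, and it shares Tfrc with the early erythroid progenitor list. Tfrc, the transferrin receptor that takes up iron for haem, fell from 88.6 ± 26.4 to 42.5 ± 12.8 TPM in wild type (-1.04, adjusted p = 0.00117) and from 110.7 ± 29.3 to 49.0 ± 15.0 TPM in Nrf2-KO mice (-1.17, adjusted p = 0.000243). The gene that rose was Id1, an inhibitor of differentiation factors, from 10.4 ± 1.86 to 15.5 ± 2.78 TPM (0.53, adjusted p = 0.00818). Ccnd3, the cyclin that sets the number of divisions of erythroid progenitors, fell with flight in Nrf2-KO mice (-0.99, adjusted p = 0.000273) and in both genotype comparisons (-0.76 on the ground and -1.36 in flight). Myc, a growth-promoting transcription factor, was lower in Nrf2-KO mice too (-0.96 and -1.14). On scaled TPM these calls of Tfrc, Id1, Ccnd3 and Myc all passed. In the genotype comparisons 8 of 13 were lower on the ground and 10 in flight. Over the list, scaled TPM gave 2 lower and 2 higher with flight in wild type mice, 4 and 2 with flight in Nrf2-KO mice, 7 and 2 with Nrf2 loss on the ground, and 8 and 1 with Nrf2 loss in flight.

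Of 8 other receptors that use JAK2 and STAT5, 6 were lower with the genotype on the ground and 6 in flight. With flight 1 was lower in wild type and 6 in Nrf2-KO mice. On scaled TPM 6 were lower in both genotype comparisons and with flight in Nrf2-KO mice, and 1 with flight in wild type mice, and 1 was higher in each except Nrf2 loss in flight, where 0 were. Csf3r, the G-CSF receptor of neutrophils, was at 56.1 ± 8.85 TPM in GC-WT and 44.0 ± 16.9 in FL-WT, against 26.1 ± 11.5 in GC-KO and 12.8 ± 3.18 in FL-KO. Its changes were -1.16 with Nrf2 loss on the ground (adjusted p = 0.000575), -1.66 with Nrf2 loss in flight (adjusted p = 3.22e-06) and -0.91 with flight in Nrf2-KO mice (adjusted p = 0.00366). Csf2rb, the shared subunit of the GM-CSF, IL-3 and IL-5 receptors, was at -1.12 and -1.75 in the genotype comparisons, and Csf2ra, the GM-CSF subunit, at -0.70 with flight in Nrf2-KO mice (adjusted p = 0.00315). All of these passed on scaled TPM (largest adjusted p = 0.0706, for Csf2ra). With GC content and length trends removed the Csf2ra value was -0.13 and no longer passed (adjusted p = 0.323), while those of Csf3r and Csf2rb did.

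Of 12 other JAK, STAT and SOCS genes, 6 were lower with flight in wild type mice and 9 in each of the other 3 comparisons. On scaled TPM 2 were lower and 2 higher with flight in wild type mice, 4 and 2 with flight in Nrf2-KO mice, 9 and 1 with Nrf2 loss on the ground, and 8 and 3 with Nrf2 loss in flight. Stat3 and Stat6, which serve other cytokines, were at -1.10 and -0.99 with Nrf2 loss on the ground and at -1.41 and -1.36 with Nrf2 loss in flight (largest adjusted p = 0.000537), and all 4 passed on scaled TPM. Their changes with flight in Nrf2-KO mice, -0.61 and -0.57, passed on deposited TPM (adjusted p = 0.0224 and 0.0221) and not on scaled TPM. With flight in wild type mice, Socs4 was at -0.55 (adjusted p = 0.00639), which passed on scaled TPM. Stat3 exons overlap those of Stat5a.

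Within groups, the genes did not vary as 1 set. Likeness was measured as Pearson r over the 24 libraries of the deviation from the group mean, on log2(scaled TPM + 1), and is given as a description, since values of a library share its cell makeup and RNA quality. The closest pairs were Stat5a with Stat5b (r = 0.861) and Bcl2l1 with Pim1 (r = 0.804). Epor was at 0.339 with Bcl2l1, 0.193 with Pim1, 0.192 with Cish, -0.057 with Stat5a and -0.45 with Lyn. Jak2 had negative r with all the other 8 genes.

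Among the 5025 genes that averaged 5 TPM or more, those most like Epor were Tal1 (r = 0.852), Abcb6 (0.843), Agfg2 (0.816), Pigq (0.814) and Slc38a5 (0.809). Tal1 encodes an erythroid transcription factor and Abcb6 a porphyrin transporter. Stat5b was most like Itgal, a leukocyte integrin (r = 0.980), Stat5a most like Csf1r, the macrophage growth factor receptor (0.918), and Lyn most like Rassf5 (0.914). Bcl2l1 was most like Fam214b (0.954), Jak2 most like the kinesin Kif5b (0.898), Pim1 most like F930017D23Rik (0.854), Socs3 most like Gm44292 (0.827) and Cish most like Apmap (0.683).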

How the data were processed

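Bone marrow RNA of 24 mice was measured with a directional library kit on the DNBSEQ-G400. Reads were mapped by the authors to mm10 (GRCm38), with STAR 2.6.1 as aligner and RSEM 1.3.1 for quantification. The values are deposited as TPM that sum to 999999.5 to 1000001.1 per library. The annotation release and strand setting are not given in the sources used here, and without read counts the depth and counting error are unknown. Gene IDs were matched to GENCODE M21.

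Groups came from the labels. limma 3.58.1 (R 4.3.3) was run on log2(TPM + 1) over 12373 genes with TPM above 1 in at least 1 of 24 libraries, with group means and Benjamini-Hochberg adjustment. Calls needed an adjusted p under 0.1. Exact two-sided permutation tests of rank sums were run per gene, without adjustment. Fold changes are on the log2(TPM + 1) scale, which understates low genes. In data simulated for FL-WT vs. GC-WT with 200 changed genes among 12373, 198 were recovered with 25 false calls. Recovery of changes under 1 log2 unit, of genes at low TPM or under a shift shared by a library was not tested. The genes and lists were chosen with earlier results of these data known. Named pathway genes were up to 2 per role and comparison, with the largest change among calls with a mean of at least 5 TPM. A gene named by this rule is not reported here. Alternatives were scaling, filters, pseudocount, thresholds, GC content and length trends, libraries left out and a replicate block.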

Additional observations from a re-analysis of the deposited data

Results flagged for a closer look

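Among 40 groups of 6 mice (10 genes in 4 groups), 1 held a mouse far from the others: Stat5b of FL-KO mouse 11 was at 4.2 TPM, and the next highest was 3.15 TPM. The gap was 0.629 of the group's range, above Dixon's critical value of 0.625. Chance flags about 1 in 20 groups. Stat5b remained lower in FL-KO vs. FL-WT without any single mouse of the compared groups.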

How the results depend on the processing

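Of 36 values (9 genes in 4 comparisons), 26 passed the test. With a pseudocount of 0.1, TPM above 1 in at least 6 libraries or a mean-expression trend, all 36 kept their direction and side of the threshold, and without a filter 35 did. The flight changes of Epor, Bcl2l1 and Pim1 kept theirs under every scaling and under removal of GC content and length trends. The cause of the changes below was not tested.

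On median-of-ratios scaled TPM 18 of 36 were kept. Counts of lower genes became 3, 4, 4 and 6 for flight in wild type mice, flight in Nrf2-KO mice, Nrf2 loss on the ground and Nrf2 loss in flight, with 1 higher in each. Values that turned positive were, with flight in wild type mice, Lyn 0.18 and Stat5b 0.065; with flight in Nrf2-KO mice, Lyn 0.20; with Nrf2 loss on the ground, Epor 0.089, Jak2 0.17, Socs3 0.038 and Bcl2l1 0.18; and with Nrf2 loss in flight, Jak2 0.16 and Bcl2l1 0.023. With quantile normalization 20 were kept, 3 and 4 genes were lower in the flight comparisons, and 1 was higher in each genotype comparison. Values turned to Stat5b 0.022 (flight in wild type mice), Lyn 0.10 (flight in Nrf2-KO mice), Epor 0.081, Jak2 0.22, Socs3 0.074 and Bcl2l1 0.046 (Nrf2 loss on the ground), and Jak2 0.25 (Nrf2 loss in flight).

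With GC content and length trends removed 12 of 36 were kept. Counts of lower genes were 3, 3, 3 and 2, and of higher genes 1 with flight in wild type mice, 4 with Nrf2 loss on the ground and 2 with Nrf2 loss in flight. Values turned to Lyn 0.10, Stat5a 0.060, Stat5b 0.16 and Cish 0.11 (flight in wild type mice); Lyn 0.085, Stat5a 0.11, Stat5b 0.060, Cish 0.17 and Socs3 0.11 (flight in Nrf2-KO mice); Epor 0.27, Jak2 0.16, Cish 0.22, Socs3 0.20, Bcl2l1 0.30 and Pim1 0.0082 (Nrf2 loss on the ground); and Epor 0.25, Jak2 0.11, Cish 0.29, Socs3 0.044 and Bcl2l1 0.26 (Nrf2 loss in flight).

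Without the 5 small RNAs 8 genes were lower with Nrf2 loss on the ground. Fitted to the compared groups alone, 3 were lower with flight in wild type mice. A minimum fold change of 2 on the log2(TPM + 1) scale left 1, 1, 0 and 1. Leaving out 1 mouse gave 3 to 8 lower genes with flight in wild type mice (3 without mouse 06 of GC-WT, 05 of FL-WT or 06 of FL-WT, and 8 without 07 of FL-WT), 7 to 8 with flight in Nrf2-KO mice, 5 with Nrf2 loss on the ground and 7 to 9 with Nrf2 loss in flight. Higher genes and interactions remained at 0 in each.

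Ground and flight mice carry the same numbers, but same-numbered mice deviated together (r over 0.1) in only 6 of 12 pairs, so they were not treated as paired. A replicate block gave 7 lower genes with flight in wild type mice, where Stat5a and Stat5b now passed, and 8 with flight in Nrf2-KO mice, and changed no other call. TPM without read counts limits the precision of Cish, Socs2 and Socs3, which lay at or below 3.74 TPM.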
